A study of Mus musculus with 4 samples.

Results

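GABA-A receptors are the chloride channels through which the inhibitory transmitter GABA acts fast in the brain. The m6A peaks on 7 mouse genes for their subunits are described here: Gabra2, Gabra3, Gabra4 and Gabra5 for alpha subunits, Gabrb1 and Gabrb2 for beta subunits, and Gabrd for the delta subunit. The genes came as a given list, 7 of 21951 protein-coding genes of GENCODE M21, and a peak was assigned to a gene when any of its bases lay over an exon of any transcript of that gene. In 4-week-old C57BL/6J mice, N6-methyladenosine (m6A) was profiled in whole brain RNA by fragmenting mRNA, pulling down the pieces bound by an antibody against m6A (IP) and sequencing them beside input RNA. The series has 2 m6A IP samples, each with a peak list, and 2 input samples without one. The input samples enter as the control for calling peaks and as the denominator of the fold enrichment given for each peak. The design text names Prrc2a flox/flox mice, a genotype given for the series as a whole, and no Cre driver is named. Neither the labels nor the lists say whether the replicates came from separate animals or whether animals were pooled. With a single IP group there was no contrast to test, and every value below is a description of the 2 lists.

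Each channel is built from several subunits around a pore. Alpha and beta subunits form the GABA binding site between them, and the choice of alpha subunit and of gamma or delta sets where a receptor sits and how it responds to drugs. Receptors with the delta subunit, often with alpha4, lie outside synapses and carry a steady inhibitory current, and many alpha5 receptors are also extrasynaptic. In the genes listed here the last coding exon encodes the end of the large intracellular loop and the last membrane-spanning segment. In mRNA in general, m6A is placed on adenosines within short motifs, of which GGAC is a common core, and is found most often in long exons, in last exons and near stop codons.

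For 5 of the 7 subunit genes, Gabra2, Gabra4, Gabra5, Gabrb1 and Gabrb2, a peak was present at the same place in both replicates. Gabra3 and Gabrd had peaks in a single list each time and none in common. Over all protein-coding genes 45.6% had a shared exonic peak, where shared means that peaks of both lists have at least 1 base in common. The shared bases formed 11 intervals, 3 on Gabrb1, 3 on Gabrb2, 2 on Gabra2, 2 on Gabra4 and 1 on Gabra5. Accordingly 4 of the 7 genes had 2 or more intervals, against 27.0% of all protein-coding genes. Replicate 1 listed 16 exonic peaks on these genes and replicate 2 listed 14. Of the former 11 were shared (68.8%, 95% Wilson interval 44.4 to 85.8), and of the latter 11 were shared (78.6%, 52.4 to 92.4). The same shares over exonic peaks of all protein-coding genes were 67.8% and 76.8%, so the subunit peaks recurred about as often as any others. These intervals cover counting error only, and peaks of the same gene are not independent.

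The sequences that carry the shared peaks are shown first, because most of the intervals fell on a single kind of place, the last exon. In coding sequence, 4 genes had a shared interval over the last coding exon, and in each of the 4 that stretch of coding sequence held GGAC. The stretches below run 5′ to 3′ on the strand of the gene, read from GRCm38 (mm10), with GGAC in capitals. That of Gabra4 (chr5:71571699-71571782, minus strand) ends with the stop codon and reaches 24 bases past the shared interval. Those of Gabra5 (chr7:57408756-57408859, minus strand), Gabrb1 (chr5:72136588-72136691, plus strand) and Gabrb2 (chr11:42626544-42626672, plus strand) lie wholly inside one.
Gabra4: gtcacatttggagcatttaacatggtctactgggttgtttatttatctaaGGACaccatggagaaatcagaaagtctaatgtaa
Gabra5: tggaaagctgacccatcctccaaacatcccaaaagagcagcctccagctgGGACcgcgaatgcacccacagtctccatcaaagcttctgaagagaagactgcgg
Gabrb1: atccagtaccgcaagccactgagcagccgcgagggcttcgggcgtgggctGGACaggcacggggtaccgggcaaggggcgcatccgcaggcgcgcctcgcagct
Gabrb2: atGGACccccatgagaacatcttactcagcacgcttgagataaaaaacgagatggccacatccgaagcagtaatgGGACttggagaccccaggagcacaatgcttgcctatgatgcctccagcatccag

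Outside coding sequence, 30-base windows around GGAC inside shared intervals are shown for the intervals that the results below turn on. Positions are counted on the spliced mRNA from the last base of the stop codon, which is 0. They refer to the GGAC adenosine and are negative upstream of the stop codon. The Gabra2 pair comes from both ends of its mRNA, the Gabrb1 window from near the far end of the longest 3′ UTR of the set, and the 3 Gabrb2 windows from the mRNA with the most GGAC inside shared intervals.
Gabra2, 5′ UTR, position -1619: tcaccgccactacGGACgccttcgccgcct
Gabra2, 3′ UTR, position 1026: gatgatgatatatGGACtttccaggtatgt
Gabrb1, 3′ UTR, position 11960: gctctcaatttcaGGACtcacagctcccca
Gabrb2, 3′ UTR, position 27: ccgtgagaagcaaGGACtggattcctcttc
Gabrb2, 3′ UTR, position 67: acagcctgatgtaGGACttggaaaacacat
Gabrb2, 3′ UTR, position 473: gctacttcaatatGGACtttgaggtctgag
A peak spans 200 bases or more, so none of these adenosines is shown to be the methylated one.

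**Figure D1:**
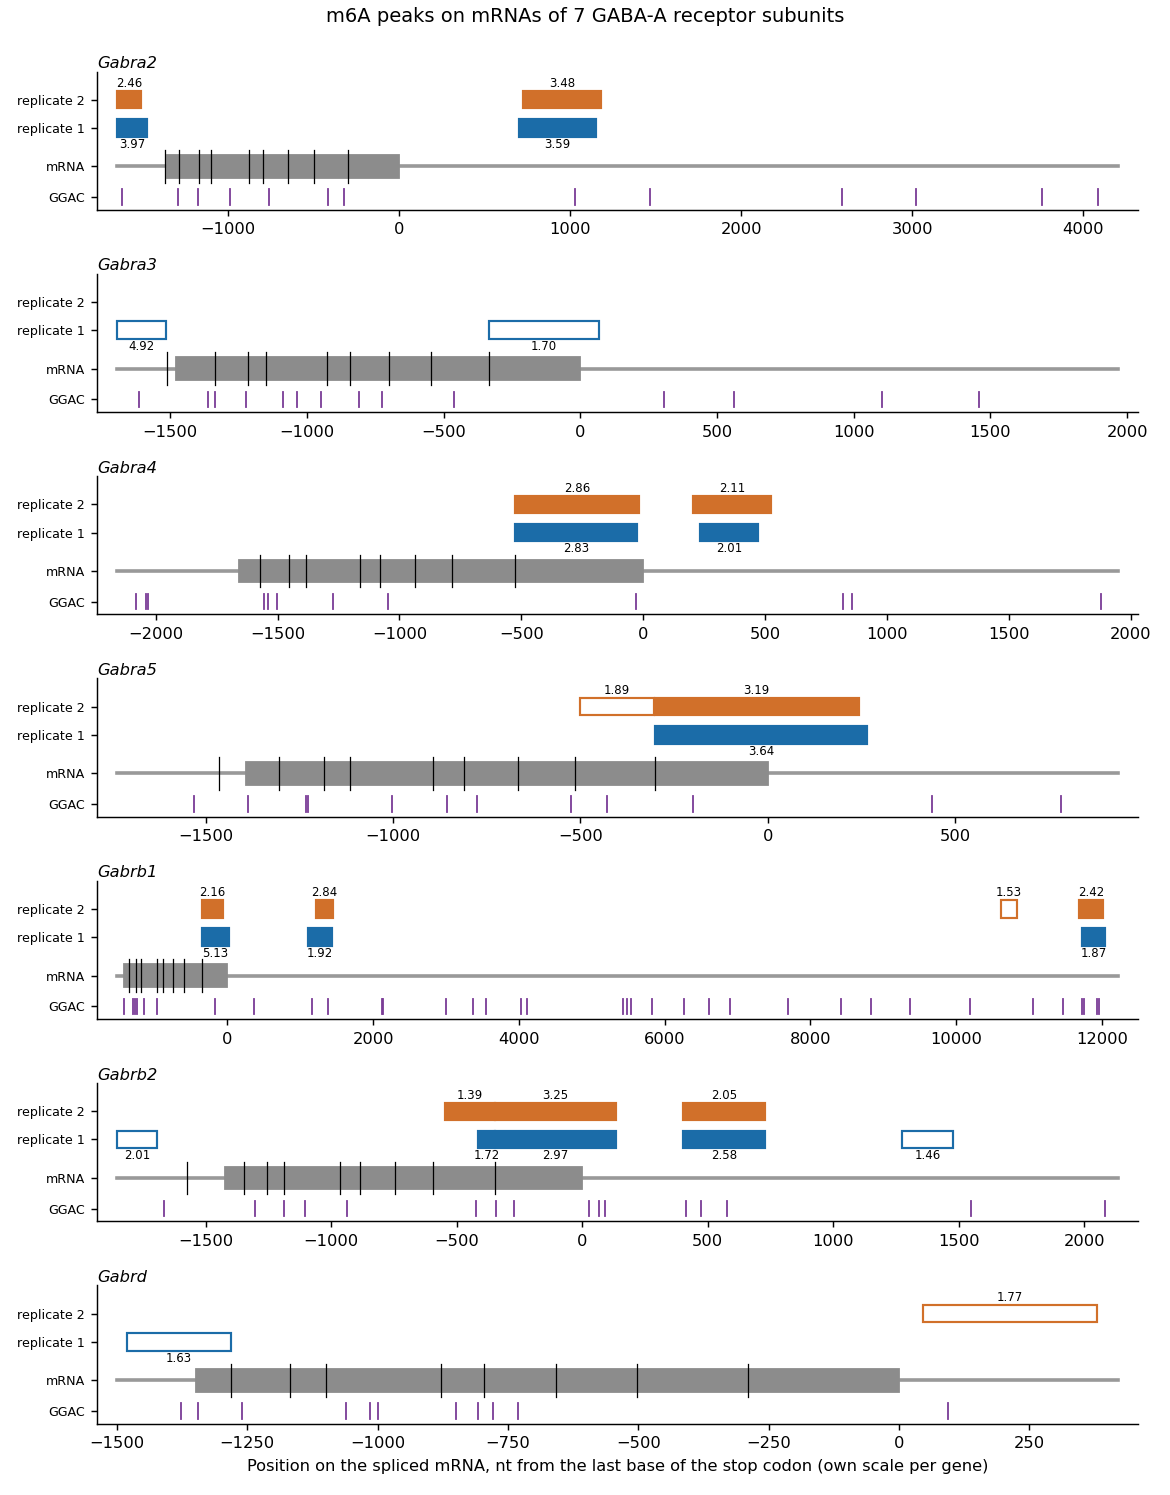
Peaks on the longest protein-coding transcript of each gene, in nt from the last base of the stop codon, with coding sequence as a thick bar, exon borders as black ticks, GGAC as purple ticks and the fold enrichment printed at each peak. Filled boxes are peaks with a partner in the other replicate and open boxes are peaks of a single list; only exonic bases are drawn. The filled boxes of all genes but Gabra2 lie in or next to the last exon, and Gabra3 and Gabrd have open boxes only.

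Among the alpha subunits, Gabra2 had the 3′ UTR interval with the highest reproducible enrichment. Gabra2 encodes alpha2, a subunit found at synapses on the axon initial segment and in limbic regions. Its 3′ UTR interval (chr5:70960650-70961078, position 724 to 1152) had a fold enrichment of IP over input of 3.59 in replicate 1 and 3.48 in replicate 2. The lower of the values stood at the 91.7th percentile of that measure over 22343 shared exonic intervals. This UTR is 4205 nt long with 6 GGAC in the last exon, and the interval held 1 of them, the GGACT printed above at 1026. The other Gabra2 interval lay at the opposite end of the mRNA, over the first exon (chr5:71095710-71095930), with 3.97 in replicate 1 and 2.46 in replicate 2. Of its 221 bases 140 were exonic and 81 lay upstream of the annotated start of the gene. It was the only shared interval over a first exon in the 7 genes. No Gabra2 peak of either list touched the coding sequence, and the coding part of the last exon has no GGAC.

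Gabra3 encodes alpha3, which is prominent in the thalamic reticular nucleus and in monoamine neurons. It had 2 peaks in replicate 1 and none in replicate 2. The first, over the first exon (chrX:72655983-72656358), had a fold enrichment of 4.92, at the 89.8th percentile of replicate 1 peaks over exons of protein-coding genes. The second, over the coding end of the last exon (chrX:72434582-72435021), had 1.70, at the 11.8th percentile. A high value in replicate 1 thus did not go with a peak in replicate 2. The last-exon coding sequence of Gabra3 has no GGAC, and none of the 4 GGAC of its last exon lay in any peak.

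Gabra4, the alpha partner of delta in many extrasynaptic receptors, had the closest agreement between replicates. Its coding interval (chr5:71571723-71572319) ran from position -524, the first base of the last exon, to -24, with a fold enrichment of 2.83 in replicate 1 and 2.86 in replicate 2. A further 96 of its 597 bases lay in the preceding intron. Its 3′ UTR interval (chr5:71571228-71571466, 233 to 471) had 2.01 and 2.11. That UTR interval held no GGAC, and the nearest downstream lies at 819, outside any peak. In both intervals replicate 2 was higher, by margins smaller than those of any other gene's pairs except the Gabra2 3′ UTR.

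Gabra5 encodes alpha5, a subunit concentrated in the hippocampus. It had a single broad interval across the stop codon (chr7:57408365-57408992, -302 to 242), covering all 303 coding bases of the last exon, with 3.64 in replicate 1 and 3.19 in replicate 2. An exon of the antisense gene Gm9962 overlaps these peaks, and since the lists carry no strand, reads from the antisense gene and from Gabra5 cannot be told apart. In replicate 2 a second peak of 1.89 lay over exon 9 (chr7:57413481-57413785). Its exonic part ended at -303, the last base of that exon, and therefore met the shared interval at the splice junction; replicate 1 listed no peak there.

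Both beta subunit genes had 3 shared intervals, spread differently along the mRNA. Gabrb1 encodes beta1 and has by far the longest 3′ UTR of the set, 12228 nt. Its coding interval (chr5:72136465-72136750, -344 to -59) began at the first base of the last exon in both replicates. The fold enrichment there was 5.13 in replicate 1, the highest exonic value of the 7 genes, but 2.16 in replicate 2. This was the widest disagreement of any pair, a log2 ratio of 1.25. Both UTR intervals of Gabrb1 went the other way: the nearer (chr5:72138023-72138243, 1214 to 1434) had 1.92 and 2.84, and the farther (chr5:72148536-72148828, 11727 to 12019) had 1.87 and 2.42. The farther interval lay close to the annotated end of the UTR and held the adenosines of 4 GGAC. Replicate 2 also listed a peak of 1.53 between them (chr5:72147428-72147644), with no partner in replicate 1. Of the 29 GGAC in the last exon of Gabrb1, 6 lay inside a shared interval.

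Gabrb2 encodes beta2, the most widespread beta subunit and a common partner of alpha1. Its main interval spanned the stop codon (chr11:42626462-42627025, -347 to 134) with 2.97 in replicate 1 and 3.25 in replicate 2. It contained 5 GGAC, of which 3 were GGACT, more than any other interval of the 7 genes. A separate UTR interval (chr11:42627294-42627618, 403 to 727) had 2.58 and 2.05, with the same first and last base in both lists. The third was weak: over the end of exon 9 and 120 intronic bases (chr11:42597719-42597905) the values were 1.72 and 1.39, and the lower stood at the 5.38th percentile. Its 67 exonic bases ended at -348 and so met the main interval at the splice junction, as the exon 9 peak of Gabra5 did. Replicate 1 alone listed a first-exon peak of 2.01 (chr11:42419685-42419916) and a distal UTR peak of 1.46 (chr11:42628165-42628368). Of the 10 GGAC in the last exon of Gabrb2, 8 lay inside a shared interval, against 6 of 29 in Gabrb1.

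Gabrd encodes delta, which takes the place of gamma in extrasynaptic receptors of cerebellar granule cells and the dentate gyrus. Each list had 1 peak, at opposite ends of the gene. Replicate 1 listed 1.63 over the first exon (chr4:155397656-155398094), and replicate 2 listed 1.77 over the 3′ UTR (chr4:155385021-155385354). They stood at the 9.45th and 26.9th percentile of the peaks over exons of protein-coding genes in their lists. Its last exon, 712 nt, is the shortest of the set, and its single GGAC at 95 lay inside the replicate 2 peak. For Gabrd as for Gabra3, the absence of a shared peak cannot be told apart from too few reads. The lists give no expression or depth, and in whole brain fewer cells of a type and less RNA per cell cannot be told apart either.

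**Figure D2:**
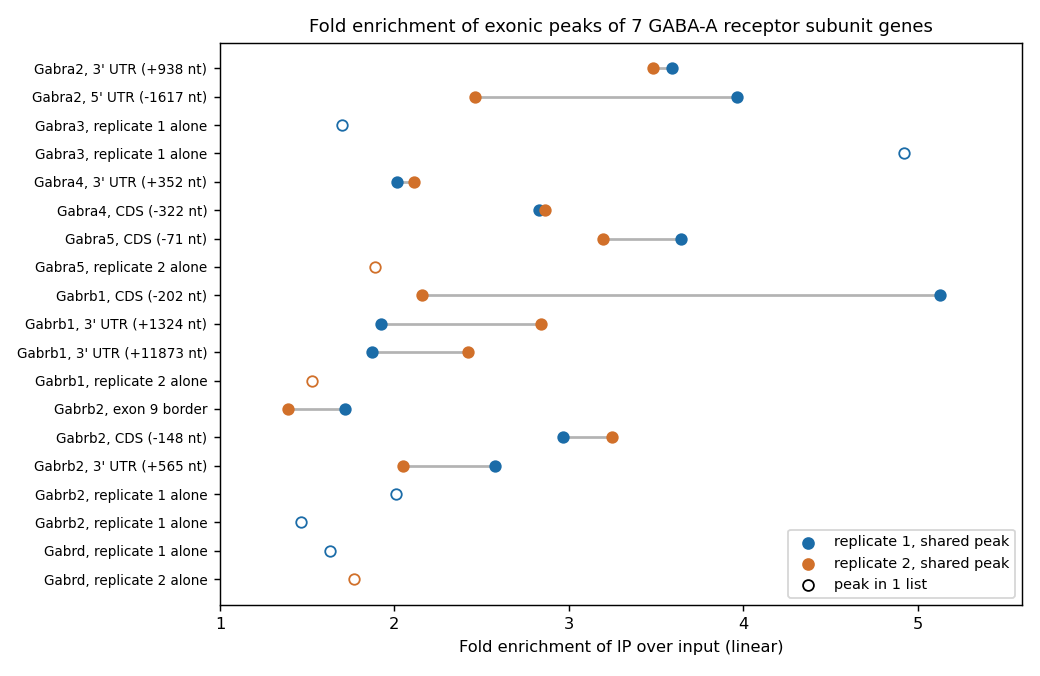
Fold enrichment (linear, IP over input) of every exonic peak of the 7 genes, with grey lines joining the values of a shared interval and open circles for peaks of a single list. Numbers in brackets are the midpoint in nt from the stop codon; the longest line is the Gabrb1 coding interval, at 5.13 and 2.16, and the replicate 1 values lie on both sides of the replicate 2 values.

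Over the whole lists replicate 1 had the higher fold enrichments, and the subunit peaks had the same median in both. Exonic peaks of all protein-coding genes had a median fold enrichment of 2.71 in replicate 1 and 2.17 in replicate 2, while the subunit peaks had 2.29 and 2.29. Their values ranged from 1.46 to 5.13 in replicate 1 and from 1.39 to 3.48 in replicate 2. In 6 of the 11 matched pairs the replicate 1 value was higher, against 78.2% of 21002 pairs over all protein-coding genes. The median log2 ratio of replicate 1 over replicate 2 was 0.04 (SD 0.50, n = 11 pairs, range -0.56 to 1.25), against 0.37 (SD 0.47) over all pairs. In level, the subunit intervals were ordinary, since the lower of both values had a median of 2.16 against 2.21 over 22343 shared exonic intervals and 5 of the 11 lay above it. The order of the 7 genes by enrichment is therefore loose: Gabra2, Gabra5, Gabrb2 and Gabra4 each had an interval with values of at least 2.83 in both replicates, whereas the highest value of Gabrb1 depended on the replicate.

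By position, most subunit intervals lay in the last exon, which is also much of the mRNA in these genes. On the longest protein-coding transcript 10 of the 11 could be placed by their midpoint; that of the Gabrb2 exon 9 interval was intronic. Of the 10, 9 had their midpoint in the last exon, where 49.2% of 20009 placed intervals of all genes did. The last exon is 12573 of 13737 nt in Gabrb1, 4502 of 5852 in Gabra2 and 2485 of 3989 in Gabrb2. In Gabra4 it is 2475 of 4108 nt and in Gabra5 1238 of 2671. The comparison takes no account of last-exon length, and intervals of the same gene are not independent. By region, 4 lay in coding sequence against 59.7% in all genes, 5 in the 3′ UTR against 30.6%, and 1 in the 5′ UTR against 9.7%. Within 200 nt of the stop codon lay 2 midpoints, those of Gabra5 and Gabrb2, against 22.5% in all genes. Replicate 1 had first-exon peaks in 4 genes, Gabra2, Gabra3, Gabrb2 and Gabrd, and 1 of the 4 recurred in replicate 2, against 66.7% of all first-exon peaks of that list. Of its 11 last-exon peaks 9 recurred, against 76.4%.

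Internal exons are much alike in all 7 genes, whereas the last exons differ widely in length. Exons of 68, 221 and 83 nt occurred in every gene, the 53 internal exons measured 68 to 260 nt, and the last exons 712 to 12573 nt, of which 291 to 525 nt were coding. Internal exons held 46 GGAC, and none had its adenosine inside a shared interval. In the 5 genes with a shared interval this was 0 of 29, against 7.16% in internal exons of up to that length in all genes with a shared exonic peak. At that share only a few of 29 would be inside one, so the 0 is not read as a trait of these genes. Cover by a peak of either list was also rare there, since 2 of the 46 lay in any peak, at position -430 of Gabra5 and -423 of Gabrb2, both in exon 9 and both in replicate 2. The Gabrb2 site, at chr11:42597710, lies just before the shared exon 9 interval, which starts at 42597719. In last exons of the same 5 genes 17 of 52 were inside a shared interval (32.7%), against 35.3% in all genes with a shared exonic peak. Without Gabrb1, whose last exon holds 29, the count over the 7 genes was 11 of 28. In first exons it was 1 of 10, the Gabra2 site. All 5 GGAC in last-exon coding sequence, 2 of them in Gabrb2, were covered. The one in Gabra4, at -31, lay close to the edge of its interval at -24.

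**Figure D3:**
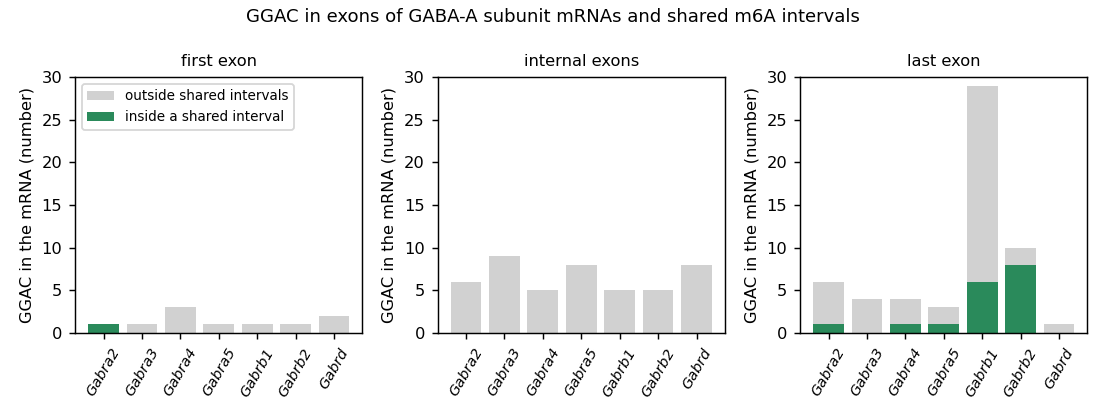
Number of GGAC in the first, internal and last exons of each subunit mRNA (bars from 0), with those whose adenosine lies inside a shared interval in green. Green is absent from the internal exons of all 7 genes, and in last exons it makes up 8 of 10 in Gabrb2 and 6 of 29 in Gabrb1.

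A shared interval over the coding part of the last coding exon was present in 4 of the 7 genes, against 27.2% of multi-exon protein-coding genes. These were Gabra4, Gabra5, Gabrb1 and Gabrb2, the same 4 that have GGAC there. Gabra2, Gabra3 and Gabrd have no GGAC there and had no such interval. Gabra3 and Gabrd had no shared interval anywhere. The 4 of 7 and the 27.2% both count genes without any shared exonic peak. Among all multi-exon genes with a shared exonic peak, 70.9% of those with GGAC in this stretch and 38.3% of those without had the interval. In the other 12 subunit genes, 2 of the 6 with GGAC and 3 of the 6 without had the interval. Unlike the 70.9% and 38.3%, these counts include genes without any shared exonic peak. Gabrp, Gabrr1, Gabrr2 and Gabrr3, which have GGAC there but lacked the interval, had no shared interval anywhere. Of the 6 without GGAC, Gabra6 and Gabre had no shared interval anywhere either. Those 6 also include Gabrq, whose last coding exon holds only 7 coding bases. In all 4 of the genes listed, the interval included the first base of the last exon. That of Gabrb1 began there. Those of Gabra4, Gabra5 and Gabrb2 also held 96, 83 and 82 bases of the preceding intron. Over whole intervals, 9 of the 11 held GGAC and 4 held GGACT. Among 20005 intervals of all genes placed on the longest coding transcript, 81.9% held GGAC and 43.0% GGACT. The 11 are not quite the same kind of set, since they include the unplaced Gabrb2 exon 9 interval, which held neither. Intervals differ in length, so windows of 200 nt around each midpoint were also read. Of the 11, 6 held GGAC, against 68.3% of the placed intervals of all genes. GGAC was searched on the strand of the gene; GGACT is a subset of it. Its presence is a description of the sequence and does not locate the methylated base.

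**Figure D4:**
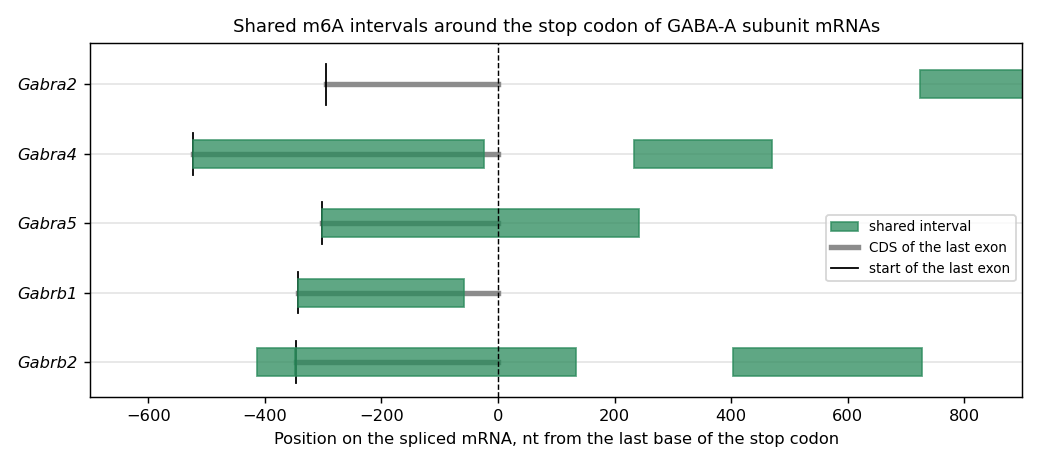
Shared intervals (boxes) around the stop codon (dashed line) on mRNAs of the 5 listed subunit genes that have any in the plotted range, with the coding part of the last exon in grey and its first base as a black tick. Gabra4, Gabra5, Gabrb1 and Gabrb2 each have a box that starts at the black tick, while Gabra2 has no box over its coding sequence. Intronic bases are not drawn.

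Of the other 12 GABA-A subunit genes, peaks were listed for 9 in replicate 1 and for 6 in replicate 2; 6 had a shared peak, 3 had peaks in replicate 1 alone and 3 had none. Among them Gabrg3 had 3.42 in replicate 1 and 2.90 in replicate 2, and Gabrq had 5.45 and 2.80. The last coding exon carried a shared interval in 5 of these 12. Of 21 other genes of the GABA synapse, for transmitter synthesis, uptake, receptor anchoring, trafficking, the chloride gradient and GABA-B receptors, 19 had a shared exonic peak. Among the subunit genes it was 5 of 7 and 6 of 12, and over all protein-coding genes 45.6%. The 4 highest were Trak2 (6.93 and 3.72), a trafficking adaptor, Lhfpl4 (5.59 and 3.37), an anchoring protein of GABA-A receptors, Iqsec3 (5.42 and 2.97), a gephyrin-binding exchange factor, and Gabbr1 (4.06 and 2.83), a GABA-B receptor subunit. No Gabra or Gabrb interval here had a lower value as high as that of Trak2. In all 4 of these synapse genes replicate 1 was the higher.

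The whole lists held 38533 peaks in replicate 1 and 30134 in replicate 2. The tissue label was checked by the presence of peaks, since the lists have no expression values: 10 of 11 brain marker genes had a shared exonic peak, and the remaining gene, Gad1, had a peak in replicate 1 alone. Of 5 genes marking liver, muscle or pancreas, 1 had a shared peak, the heart myosin gene Myh6, and 4 had none. Over all protein-coding genes 45.6% had a shared exonic peak.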

How the data were processed

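m6A-seq data of 2 IP and 2 input samples of mouse whole brain were used as the 2 deposited peak lists. By the methods and the labels, the authors trimmed reads with Cutadapt and Trimmomatic, mapped them to mm10 with TopHat (TopHat2 2.0.9 in the submitters' processing notes; the methods name another version), kept unique hits and called peaks with MACS2 per replicate against its own input, without a fragment model, keeping duplicates, at a false discovery rate cutoff. Each deposited peak has a fold enrichment, which is the IP signal divided by the input signal on a linear scale (a ratio). The deposited start and end positions were taken as written. The lists hold no counts, strand, summit or p-value, so the depth is unknown, and keeping duplicates can raise values built on few molecules.

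Peaks were placed on GENCODE M21 exons with Python 3.11.15, pandas 2.3.3 and numpy 2.4.6. Peaks with at least 1 bp in common between lists were shared, and a shared interval is the common bases. Matched pairs are peaks that are each other's best partner. Midpoints, distances and the GGAC of each exon class were read on the longest protein-coding transcript of each gene, a choice made after seeing the data. The transcript with the longest coding sequence was the original choice and leaves the 3′ UTR of Gabrb2 unplaced. For counts of subunit intervals with GGAC or GGACT, the genomic sequence of the interval was searched, including any intronic or upstream bases. Sequences are from RefSeq GRCm38. Wilson intervals (95%) used scipy 1.17.1. The overlap code was tested on simulated peaks. No test was made, since the design has no contrast. All 7 members are named with every exonic peak; of other lists at most 4 genes with the highest lower value, some of which are not reported here. Members and lists were chosen with earlier results of these data known.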

Additional observations from a re-analysis of the deposited data

How the results depend on the processing

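Of 63 alternative values over 10 results, 58 were labelled unchanged and 5 moved. A reversal was defined only for the median log2 ratio, where none occurred. Unchanged meant within 1.5 times the reported count or inside the Wilson interval of the share. For the median log2 ratio it meant a shift smaller than the SD of the pairs. On the transcript with the longest coding sequence, 4 intervals lay in the 3′ UTR, and 2 of them remained with both values at 2 or higher. Within 200 nt of the stop codon lay 2 midpoints, but 1 within 100 nt, 5 within 400 nt, and 4 when any base of the interval counted. GGAC occurred in 9 intervals and GGACT in 4. The alternatives were a stricter overlap, midpoint matching, other distances, motifs and transcripts, and the longest transcript was added after seeing the data. No paired analysis was possible because the IP samples form a single group and the input samples have no peak list. With a replicate left out, sharing could not be asked, and the lists alone gave peaks in 6 to 7 genes (5 shared) and 14 to 16 peaks (11 shared intervals). These single-list counts are among the 63 values, although they count a different quantity from the shared counts. The depth is unknown, so a missing peak in 1 list may reflect few reads, and this was not tested.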

Other observations

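Replicate 1 also listed 9 peaks wholly inside introns of the subunit genes, 5 in Gabrb1, 3 in Gabra2 and 1 in Gabra4, with fold enrichments from 2.88 to 5.35. Replicate 2 listed 0 in any of the 7 genes, so none was shared. The highest, 5.35, lay in Gabra4 (chr5:71650916-71651209) and exceeded all exonic values of the set. Over all protein-coding genes, intron-only peaks were 3679 in replicate 1 (9.55% of its list), of which 530 were shared, and 712 in replicate 2 (2.36%), of which 561 were shared.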
